A study of Oryza sativa Indica Group with 6 samples.

Results

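Bicellular pollen was compared with uninucleate microspores in the male gametophyte of rice, gene by gene. The samples came from field-grown plants of the variety Guichao No.2 (Oryza sativa Indica Group), with no treatment beyond stage given in the labels. The series held 6 Affymetrix arrays, 2 biological replicates at each of 3 stages, and the comparison used the 2 arrays of uninucleate microspores (UNM) and the 2 of bicellular pollen (BCP). The 2 arrays of tricellular pollen (TCP) entered the same statistical fit, and their levels are given only as a description. Every non-control probe set of the array, a group of probes for 1 transcript, was compared by the difference between its stage means, which gave 57194 probe sets. Of these, 22436 were paired with a single gene in the platform annotation and stood for 17905 genes, of which 2451 had a name in the platform and RefSeq gene tables. The labels do not say how microspores or pollen were freed from the anther, how many plants were pooled, or how the purity of a stage was checked.

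A microspore released from the meiotic tetrad divides asymmetrically at the first pollen mitosis. The large vegetative cell takes most of the cytoplasm, stores reserves and later forms the pollen tube, while the small generative cell inside it later divides into the sperm cells. In rice the surrounding tapetum, the inner layer of the anther wall, nourishes the microspores and is broken down during this period, and the vegetative cell then fills with starch.

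Values are signals on the log2 scale, so that a difference of 1 is a factor of 2. Differences are BCP minus UNM with their standard error (SE) from limma, a linear model fitted to all probe sets, and p-values were adjusted over all 57194 probe sets by the Benjamini-Hochberg method. A gene is said to rise or fall only where its adjusted p was under 0.05 and its difference at least 1 in size, and every p-value measures the spread between these few arrays. A gene was represented by its probe set with the highest mean over the 6 arrays. The median signal lay between 4.57 and 4.59 on the 4 arrays. Replicates resembled each other across probe sets (Pearson's r of 0.992 and 0.993, a description, since probe sets are not independent) more than stages did (0.826 to 0.827). Background was taken from 64 probe sets for reporter genes foreign to rice. Their 95th percentile was 5.10 in UNM and 5.65 in BCP, and 38.6% and 42.3% of probe sets lay above that of their array in UNM against 31.7% and 30.4% in BCP. A gene described below as coming from background or falling to background had a stage mean at or under that level, and the size of its difference is then not exact. Signals of the ribosomal RNA control probe sets were lower in BCP, by -3.25 for 25S, -3.75 for 28S and -1.90 and -2.51 for 18S. The 5.8S probe set differed by -1.54, under background in both stages. The part of these differences in the results was not tested. Spiked hybridization controls averaged 7.74 and 7.18 on the UNM arrays and 7.81 and 7.64 on the BCP arrays, so that the UNM arrays differed by 0.56 and the stage means by 0.26. Since RNA came from whole samples, fewer cells of a type and less RNA per cell cannot be told apart.

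More genes fell than rose at this step. Of the 17905 genes, 3068 rose (17.1%) and 4502 fell (25.1%), together 42.3%. Among the 2451 genes with a name, 454 rose (18.5%) and 693 fell (28.3%), together 46.8%. Among all 57194 probe sets, 5300 rose (9.27%) and 7030 fell (12.3%), together 21.6%. The median difference was -0.12 over all genes and -0.20 over named genes. Centring the arrays on their 75th percentile moved the median over all genes to 0.05, and scaling by the hybridization controls moved it to -0.38. The split moved with it, since rises made up 40.5% of the calls over genes as deposited, 46.5% with the 75th percentile and 31.6% with the hybridization controls.

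The loss of transcripts was also more often a fall to background than the gain was a rise from it. Both stage means lay above background for 9543 genes, only the UNM mean for 3151, only the BCP mean for 634, and neither for 4577. Of the genes that fell, 2127 were above background in UNM and not in BCP, and of those that rose, 607 were above it in BCP and not in UNM. The background level itself was higher in BCP, so the count of genes above it in only 1 stage depends on that level. Above background in both stages, 2380 genes rose and 2193 fell. Differences of more than 4 were found in 383 rises and 417 falls.

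**Figure D1:**
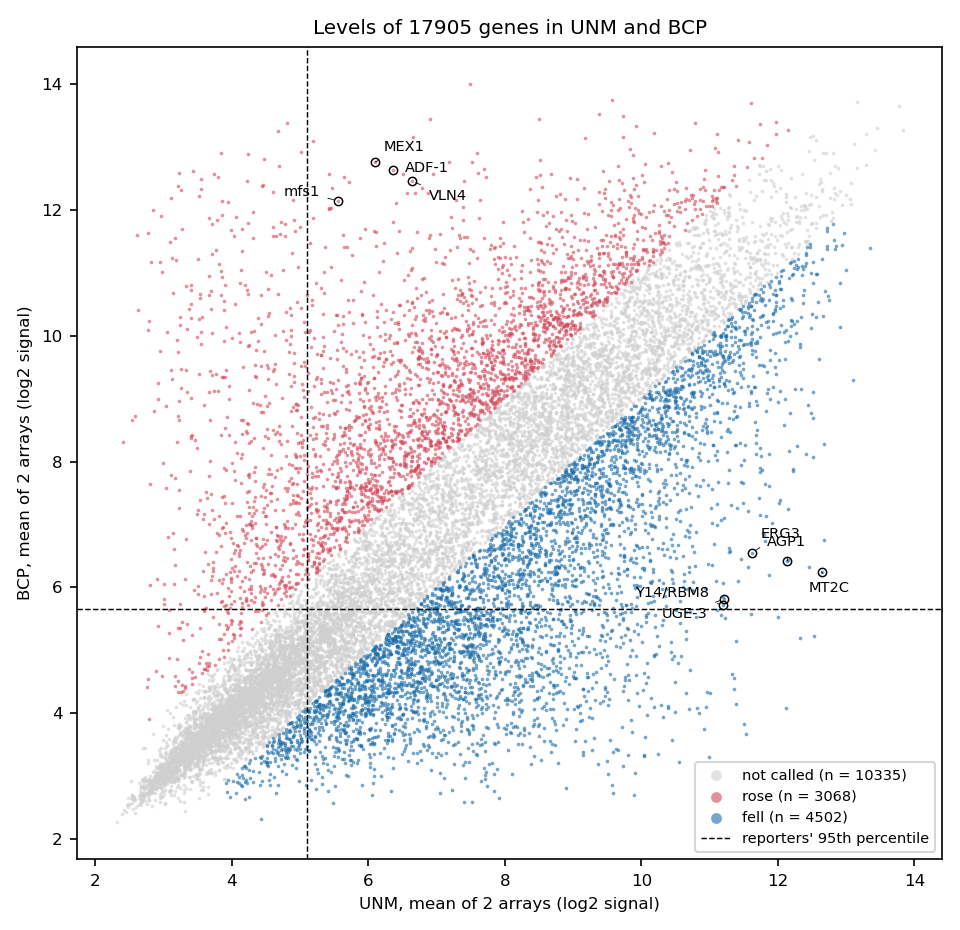
Stage means of 17905 genes, with UNM on the horizontal axis and BCP on the vertical axis (log2 signal, mean of 2 arrays), coloured by call, where 3068 rose, 4502 fell and 10335 were not called. Dashed lines mark the 95th percentile of the reporter probe sets, 5.10 in UNM and 5.65 in BCP, and the circled genes, MEX1, mfs1, ADF-1 and VLN4 among the rises and MT2C, AGP1, Y14/RBM8, UGE-3 and ERG3 among the falls, lie above both lines.

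The largest rises with a name mostly started from background. Behind 8 genes led by BGLU38, YSL4 and GBSS-I came MPK17, a mitogen-activated protein kinase, at 5.23 and 4.58 in UNM and 11.79 and 11.90 in BCP. MST5, a monosaccharide transporter, read 3.85 and 3.55 in UNM against 10.14 and 10.73 in BCP. DPE1, a disproportionating enzyme that recycles short glucans inside the plastid, read 4.62 and 4.87 in UNM and 11.00 and 11.10 in BCP. In each of these the BCP arrays stood far above both UNM arrays, and in TCP all remained high, at 12.22 and 12.15 for MPK17, 10.26 and 10.43 for MST5 and 11.84 and 11.78 for DPE1. The rises were 6.94 ± 0.21 (SE) for MPK17 (adjusted p = 7.67e-07 by limma), 6.73 ± 0.22 for MST5 and 6.30 ± 0.14 for DPE1. NifU1, a scaffold for iron-sulfur cluster assembly, rose by 6.74 ± 0.20 on a probe set shared with other transcripts, and its other probe set did not give the call.

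Genes of nitrogen, inositol and trehalose metabolism stood among the largest falls, each to background. GLT2, the large NADH-dependent glutamate synthase of nitrogen assimilation, read 9.63 and 9.69 in UNM and 3.41 on both BCP arrays, a difference of -6.25 ± 0.12 (adjusted p = 1.51e-07 by limma). INO1, which makes inositol phosphate from glucose 6-phosphate, read 11.38 and 11.40 against 4.95 and 5.34 (-6.25 ± 0.16). The trehalose 6-phosphate phosphatase gene TPP1 read 9.71 and 9.74 against 3.68 and 3.89 (-5.94 ± 0.14). All 3 stayed at background in TCP. The peptide hormone precursor gene PSK5 (phytosulfokine) fell from 8.96 and 9.32 to 3.39 and 3.38, and the aquaporin gene PIP1-2 from 11.36 and 11.09 to 5.63 and 5.38. The anther gene C4 read 10.61 and 10.70 in UNM and 4.38 and 4.25 in BCP.

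Among genes measured above background in both stages, where the size of a difference is better bounded, the largest rise with a name was that of MEX1, the maltose exporter of the plastid envelope. It read 6.15 and 6.06 in UNM and 12.75 and 12.78 in BCP, and rose by 6.66 ± 0.12 (adjusted p = 1.46e-07 by limma). OsPP2C59, a protein phosphatase of type 2C, read 5.24 and 5.45 against 11.04 and 10.98 (5.66 ± 0.13). DAHPS1, which opens the shikimate pathway to aromatic amino acids, read 6.85 and 7.04 against 12.56 and 12.59 (5.63 ± 0.13). Between MEX1 and OsPP2C59 stood mfs1 (6.60 ± 0.12), the actin regulators ADF-1 (6.28 ± 0.20) and VLN4 (5.82 ± 0.12), and AGPS2. In all of these the replicates of a stage lay close together and far from the other stage. Next came BGLU36, a beta-glucosidase (5.61 ± 0.15), ADF-6, an actin-depolymerizing factor (5.57 ± 0.13), and SAMS2, an S-adenosylmethionine synthetase (5.52 ± 0.12). The UNM means of mfs1, OsPP2C59, AGPS2, BGLU36 and SAMS2 lie within 1 log2 unit of background, so the size of their rises is less certain. Both other probe sets of BGLU36 and the other of SAMS2 gave the same call.

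The largest falls measured above background in both stages followed the metallothionein gene MT2C. AGP1, an arabinogalactan protein of the cell surface, read 12.08 and 12.20 in UNM and 6.46 and 6.39 in BCP, a difference of -5.71 ± 0.13 (adjusted p = 2.4e-07 by limma). Y14/RBM8, an RNA-binding subunit of the exon junction complex, read 11.17 and 11.21 against 5.70 and 5.75 (-5.47 ± 0.20). UGE-3, a UDP-glucose 4-epimerase that supplies galactose for cell walls, read 11.17 and 11.25 against 5.85 and 5.78 (-5.40 ± 0.32). The BCP means of these 3, and of ERG3 and RTS below, lie within 1 log2 unit of background, so the size of their falls is less certain. ERG3, named for its response to elicitors, fell by -5.07 ± 0.22, and R40C1, a protein first found in osmotically stressed roots, by -4.90 ± 0.12. RTS, a gene of rice known for its role in the tapetum, read 10.24 and 10.45 in UNM and 5.88 and 5.85 in BCP (-4.48 ± 0.17).

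Genes were also grouped into 85 lists by family or pathway, holding 1865 of the named genes. Members rose and fell in 67 of the lists, 2 lists had rises and no fall, and 16 had falls and no rise. Among the 58 lists with at least 16 genes, starch metabolism, gibberellin, kinesins and respiration stood at the end with more rises. Splicing, replication and the response to abscisic acid and ethylene stood at the other. Some shorter lists leaned further, such as autophagy (0 of 7 rose and 6 fell) and TUBBY-like genes (6 of 12 rose and 0 fell). Of 32 kinesins 11 rose and 4 fell, but 10 and 8 with the hybridization controls. A list's shares are to be read beside the 17.1% of all genes that rose and the 25.1% that fell.

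**Figure D2:**
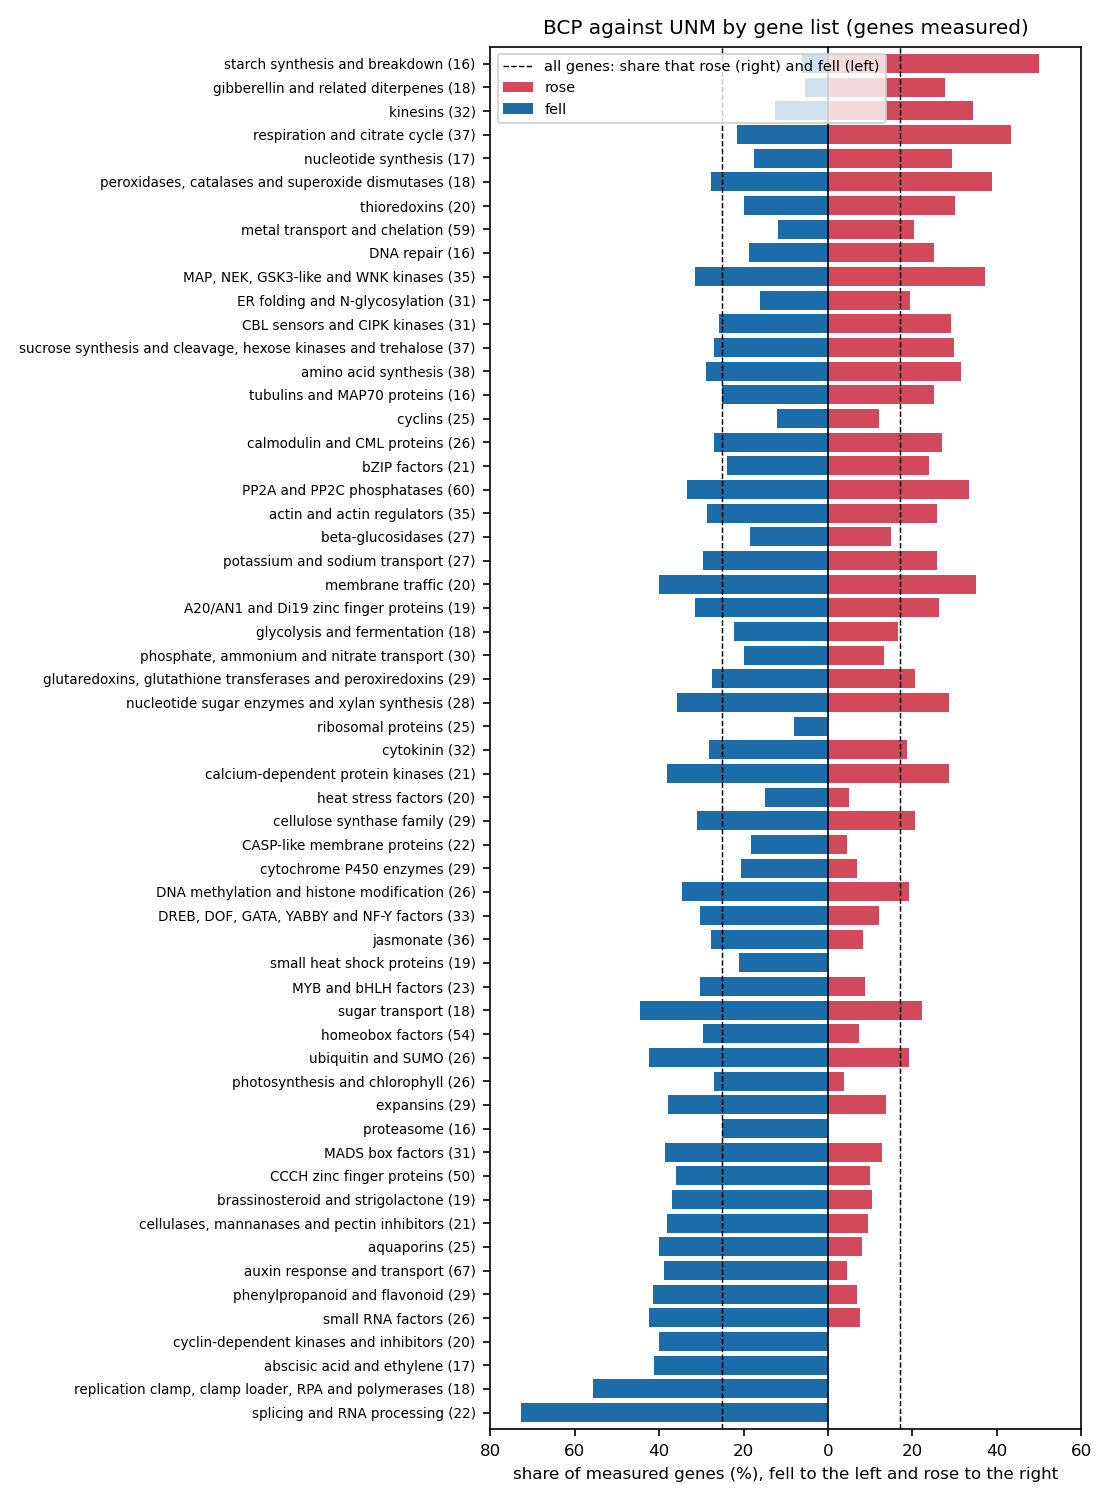
Shares of genes that rose (right) and fell (left) in the 58 lists with at least 16 measured genes, in percent, ordered by the difference between the shares. Dashed lines mark the shares over all 17905 genes, 17.1% and 25.1%, and the bars run from starch synthesis and breakdown, where 8 of 16 genes rose and 1 fell, to splicing and RNA processing, where 0 of 22 rose and 16 fell.

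Genes of starch turnover rose, those of breakdown as well as those of synthesis. Of 16 genes in the list 8 rose and 1 fell, with a median of 1.17 against -0.12 over all genes. Among genes that act on finished starch, GWD3, the dikinase that phosphorylates the granule, read 8.52 and 8.40 in UNM and 12.44 and 12.61 in BCP, and rose by 4.06 ± 0.13. DPE2, which uses the exported maltose in the cytosol, read 8.38 and 8.62 against 13.45 and 13.44 and rose by 4.94 ± 0.16. DPE1 inside the plastid, MEX1 in its envelope, GWD3 and DPE2 were all higher on both BCP arrays than on either UNM array. In TCP, GWD3 (12.78 and 12.70), DPE2 (13.60 and 13.27) and MEX1 (11.88 and 11.84) stayed high. For synthesis, AGPS2, a small subunit of the enzyme that makes ADP-glucose, read 5.72 and 5.64 in UNM, 11.39 and 11.45 in BCP and 8.57 and 8.53 in TCP, on a shared probe set. SSII-1, the only gene of the list that fell, to background, passed by little, at -1.08 ± 0.20, and its call ended without UNM replicate 2 or BCP replicate 1 and with quantile normalisation or centring on the 75th percentile.

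Genes that move carbon between sucrose, hexoses and the plastid moved in both directions. In the list of sucrose, hexose kinase and trehalose genes 11 of 37 rose and 10 fell, with a median of -0.32. OsSPS2, a sucrose phosphate synthase, rose from background, from 4.47 and 3.98 to 8.40 and 8.53. The sucrose phosphate phosphatase genes that share the names SPP2 (gene 4328274) and SPP1 (gene 4325448) rose by 2.67 ± 0.12 and 2.35 ± 0.13, and 4 of 7 hexokinase genes rose and 0 fell. Among the falls, both to background, Sus2, a sucrose synthase (shared probe set), read 8.73 and 8.75 in UNM and 4.65 and 4.74 in BCP, and the cytosolic invertase gene OsCYT-INV1 read 8.93 and 9.03 against 5.33 and 4.97. Of the trehalose phosphatases TPP10 rose from background (2.64 ± 0.18) while TPP1 fell. Of 9 plastid translocator genes 3 rose and 2 fell (3 and 3 with the hybridization controls). BASS4, of the sodium cotransporter family, rose by 2.85 ± 0.20. PPT2, of the phosphoenolpyruvate translocators, read 6.55 and 6.96 in UNM, 4.20 and 4.46 in BCP, at background, and 10.99 and 11.06 in TCP. BASS1 rose by 4.06 ± 0.16, a call that its other 2 probe sets did not give.

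Respiration was a further group with more rises than falls. Of 37 genes 16 rose and 8 fell, with a median of 0.97. Succinate dehydrogenase, which links the citrate cycle to the electron transport chain, had 8 measured subunits, of which 6 rose and 0 fell (4 rose after scaling by the hybridization controls). FP, its flavoprotein subunit, read 9.84 and 9.92 in UNM and 12.79 and 12.95 in BCP (2.99 ± 0.13, adjusted p = 3.04e-06 by limma). SDH4 rose by 1.81 ± 0.13 and SDH7 by 1.71 ± 0.13. SCS-alpha, a subunit of the enzyme just before it in the cycle, read 10.94 and 10.91 against 12.65 and 12.63. The nuclear gene atpB of an ATP synthase beta subunit rose by 1.80 ± 0.12, not called on its other probe set. ACLA-2, of the cytosolic enzyme ATP citrate lyase, rose by 1.87 ± 0.20. The falls included TIM13 and TIM9, chaperones of protein import into mitochondria, at -1.59 and -1.08. Only 5 genes of the list fell without UNM replicate 2 or with centring on the 75th percentile, which also gave 21 rises, and scaling by the hybridization controls gave 12 rises and 8 falls.

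The porins of the outer mitochondrial membrane divided. VDAC3 read 7.60 and 7.58 in UNM and 11.22 and 11.26 in BCP and rose by 3.65 ± 0.12, and VDAC5 rose by 1.89 ± 0.12. VDAC2 read 11.59 and 11.51 against 9.84 and 9.90 and fell, at -1.68 ± 0.12. VDAC1 and VDAC6 fell by little more than the minimum (-1.02 each), their other probe sets gave no call, and with centring on the 75th percentile only 1 of the 3 falls of this family remained. In VDAC3 and VDAC2 the 2 BCP arrays lay on the same side of both UNM arrays by more than 1 log2 unit.

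Amino acid synthesis changed in sets of isoforms. Of 38 genes 12 rose and 11 fell (9 and 14 with the hybridization controls, 12 and 13 with quantile normalisation), with a median of -0.06. The synthetases of S-adenosylmethionine, the methyl donor, crossed, since SAMS2 read 5.79 and 5.74 in UNM and 11.21 and 11.36 in BCP while METK3 read 10.18 and 10.20 in UNM and fell to background at 5.40 and 5.35 in BCP. Each stage thus had a high signal from a different synthetase gene. In tryptophan synthesis ASA1, an alpha subunit of anthranilate synthase, rose from 9.52 and 9.81 to 11.97 and 12.04 (2.34 ± 0.16), the beta subunit gene ASB2 rose by 2.17 ± 0.12, and ASA2 fell to background on a shared probe set (-2.51 ± 0.15). ASA1 was at background in TCP, at 4.71 and 4.45. GLN1-2, a cytosolic glutamine synthetase, read 12.19 and 12.24 in UNM and 7.88 on both BCP arrays (-4.33 ± 0.16), and with GLT2 and the glutamate dehydrogenase GDH3 it was among the 4 largest falls of the list. SAT5, of the serine acetyltransferases that start cysteine synthesis, rose by 2.59 ± 0.13 while SAT1 fell at -2.50, and the other probe set of each gave no call.

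Nucleotide genes moved both ways. The 3 falls of the list were genes of pyrimidine synthesis, with PYRB, aspartate carbamoyltransferase, at 10.14 and 10.12 in UNM and 5.95 and 6.24 in BCP (-4.04 ± 0.18). CARB, the large subunit of carbamoyl phosphate synthetase, read 10.46 and 10.59 against 8.52 and 8.45 (-2.04 ± 0.13), and PYRC, dihydroorotase, fell at -1.80 ± 0.17. Among the 5 rises stood the adenylate kinase ADK-A at 7.84 and 7.73 against 10.08 and 9.94, the UMP kinase ura6 at 8.89 and 9.05 against 10.86 and 10.82, and NDKR, a nucleoside diphosphate kinase, at 10.23 and 10.29 against 11.77 and 11.75. Of the 17 genes in the list 5 rose and 3 fell (4 and 4 with the hybridization controls).

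**Figure D3:**
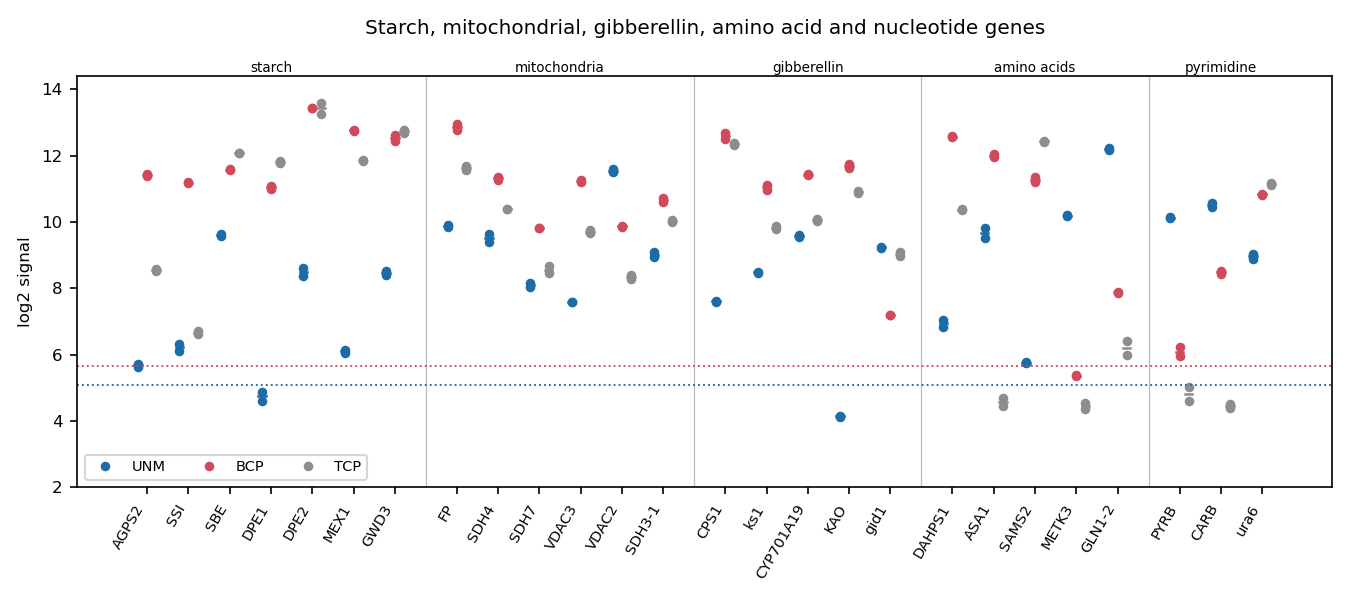
Log2 signal on each of 2 arrays (points) and the stage mean (short lines) in UNM, BCP and TCP for genes of starch, mitochondria, gibberellin, amino acids and pyrimidines. Dotted lines mark background in UNM (5.10) and BCP (5.65), the genes MEX1, FP, CPS1 and SAMS2 stand higher in BCP than in UNM, and VDAC2, gid1, METK3, GLN1-2, PYRB and CARB stand lower.

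Gibberellin synthesis was a hormone pathway in which genes of the steps from CPS1 to KAO rose. CPS1, which makes the diterpene precursor, read 7.59 and 7.63 in UNM and 12.51 and 12.67 in BCP (4.98 ± 0.13, adjusted p = 3.83e-07 by limma). ks1, the kaurene synthase of the next step, read 8.49 and 8.48 against 11.13 and 10.98 (2.57 ± 0.12), on a shared probe set. CYP701A19, of the kaurene oxidase family, read 9.55 and 9.60 against 11.44 and 11.42 (1.85 ± 0.12), also on a shared probe set whose sister probe set gave the same call. KAO, kaurenoic acid oxidase, rose from background, from 4.14 and 4.15 to 11.76 and 11.63 (7.55 ± 0.12). On all 4 genes the BCP arrays were higher than both UNM arrays, and in TCP their means were lower than in BCP but above those in UNM. The receptor gene gid1 read 9.26 and 9.23 in UNM and 7.19 and 7.21 in BCP (-2.04 ± 0.12), a call not given by its other probe set. SLR1, the DELLA repressor of the pathway, was under background in both stages. CPS2, a relative of CPS1 known in rice for making phytoalexins, rose from background, by 4.33 ± 0.19. In the list 5 of 18 genes rose and 1 fell, with a median of 0.05 (5 and 2 and a median of -0.21 with the hybridization controls). Only 7 of the 18 were above background in either stage.

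Other hormone lists had more falls than rises, as did all genes (17.1% rose and 25.1% fell). The share that fell was 38.8% for auxin and 41.2% for abscisic acid and ethylene. It was 27.8% for jasmonate and 28.1% for cytokinin, near that of all genes. In the auxin list 3 of 67 genes rose and 26 fell (median -0.70), and for abscisic acid and ethylene 0 of 17 rose and 7 fell (median -0.79). ERS1, an ethylene receptor, read 8.88 and 8.99 in UNM and 6.14 and 6.38 in BCP, and ABF2, a bZIP factor of the abscisic acid response, read 8.56 and 8.84 against 5.88 and 5.86. Within the jasmonate list, where 3 of 36 rose and 10 fell, COI2, a coreceptor of the hormone, read 8.42 and 8.60 against 12.55 and 12.57 and rose by 4.04 ± 0.13. COI1B, its relative, fell to background from 7.72 and 8.16. JAZ9, of the repressors that bind COI proteins, rose by 2.54 ± 0.12 while JAZ7 and JAZ11 fell to background, at -4.68 and -4.25. For cytokinin, 6 of 32 genes rose and 9 fell, 8 and 8 with the 75th percentile. LOGL7, of the enzymes that release active cytokinin, rose from 5.09 and 5.21 to 8.49 and 8.36 (3.27 ± 0.13), not called on its other probe set, and LOG of the same family fell to background from 9.67 and 9.29, likewise not called on its other probe set. D14, the strigolactone receptor, also fell to background, from 8.22 and 8.25.

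Genes of DNA replication were lower in BCP. Of 13 genes for the MCM helicase and the origin recognition complex 1 rose and 8 fell (median -1.44), and of 18 for the clamp, its loader, RPA and the polymerases 0 rose and 10 fell (median -1.07, with 1 rise without UNM replicate 2 and with 2 rises and 8 falls with the 75th percentile). The 6 genes of the hexameric helicase, MCM2 to MCM7, all fell, by between -1.27 and -2.61. MCM2 read 7.92 and 8.10 in UNM and 5.57 and 5.53 in BCP, MCM4 7.60 and 7.76 against 5.09 and 5.27, and OsMCM6 7.32 and 6.87 against 5.01 and 4.96. MCM7 had the smallest difference, from 6.23 on both UNM arrays to 4.80 and 5.13. Both BCP arrays lay below both UNM arrays for each of these, and 1 of the 6 BCP means was above background. MCM8 and MCM9, relatives outside that ring, were under background in both stages on their representative probe sets.

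ORC1, the largest subunit of the origin recognition complex, went the other way and rose from background, from 4.56 and 4.32 to 6.32 and 6.34 (1.89 ± 0.14, adjusted p = 3.24e-05 by limma). ORC2 read 7.96 and 7.90 in UNM and 6.14 and 6.15 in BCP (-1.79 ± 0.12). At the fork, the clamp PCNA fell at -3.12 ± 0.13 and TK, a thymidine kinase, at -3.02 ± 0.16, to background. POLD1, the catalytic subunit of polymerase delta, read 8.42 and 8.55 against 6.09 and 6.26, and RFC4, of the clamp loader, 8.95 and 8.86 against 6.68 and 6.76, both on shared probe sets. The flap nucleases FEN1A and FEN1B were not called, with differences of 0.10 and -0.06.

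All 5 measured H2B histone genes fell (4 with centring on the 75th percentile). H2B.5 read 11.54 and 11.43 in UNM and 7.36 and 7.31 in BCP (-4.15 ± 0.12), and H2B.10 fell from 10.68 and 10.67 (-3.76 ± 0.13). H2B.6 fell by -2.90 ± 0.15. In TCP these were higher again than in BCP, at 10.80 and 10.77 for H2B.5, 8.43 and 8.41 for H2B.10 and 8.80 and 8.81 for H2B.6. CenH3, the histone of centromeres, differed by 0.43 ± 0.14, which did not reach 1. Of 11 histone and histone chaperone genes 0 rose and 6 fell.

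Cyclins rose and fell alike, 3 of 25 in each direction (3 and 5 with the hybridization controls). CYCB2-1, a mitotic cyclin, read 6.19 and 6.72 in UNM and 9.21 and 9.25 in BCP (2.77 ± 0.20), and CYCA2-1 read 7.22 and 7.73 against 10.17 and 10.08 (2.65 ± 0.19). CYCB2-2, a close relative of the first, fell to background at -1.93, a call its other probe set did not give. The P-type cyclin gene CYCP3-1 fell to background, from 8.56 and 8.50 to 3.39 and 3.13. Among 20 genes for cyclin-dependent kinases, their inhibitors, Rbr1 and the MYB3R factors, 0 rose and 8 fell (1 rose without UNM replicate 1). Rbr1, the retinoblastoma protein that restrains entry into S phase, read 8.64 and 8.50 against 3.65 and 3.48 on a shared probe set, and the kinase inhibitors EL2 and KRP5 read 7.94 and 7.49 against 2.88 and 3.02 and 8.55 and 8.38 against 4.61 and 4.10. All 3 thus fell to background, although the other probe sets of Rbr1 and EL2 did not give the call. MYB3R-2, a factor that acts on mitotic genes, fell at -1.98 ± 0.13.

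**Figure D4:**
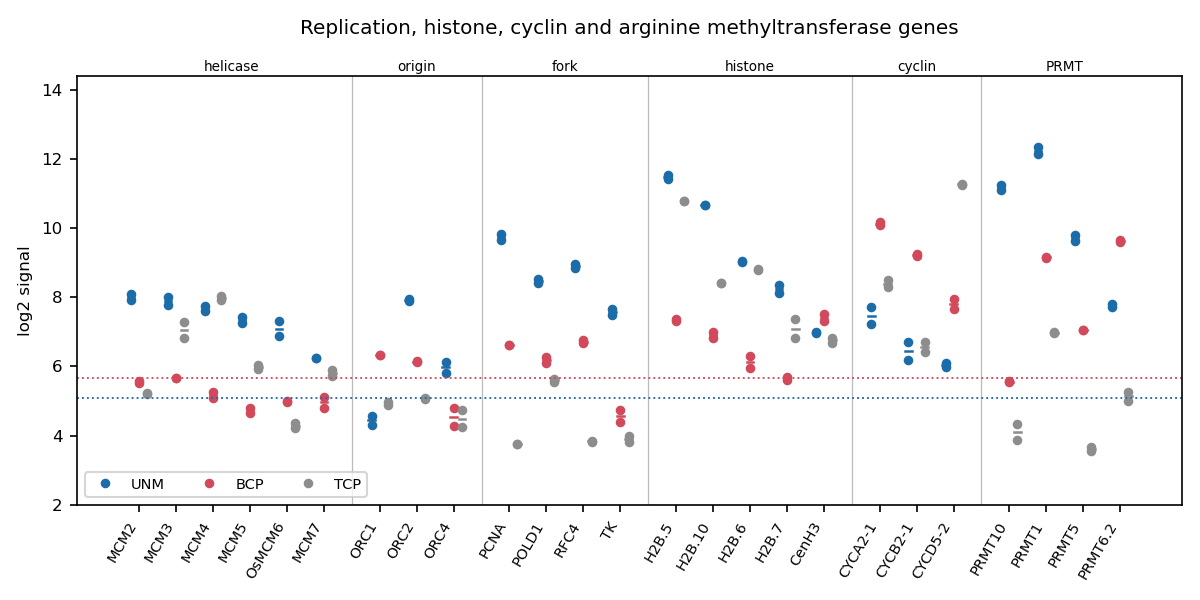
Log2 signal on each of 2 arrays (points) and the stage mean (short lines) in UNM, BCP and TCP for genes of the replicative helicase, the origin recognition complex, the replication fork, histones, cyclins and arginine methyltransferases. The 6 MCM genes, the H2B genes and PRMT10, PRMT1 and PRMT5 stand lower in BCP than in UNM, and ORC1, CYCA2-1, CYCB2-1 and PRMT6.2 stand higher.

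Genes acting on RNA fell widely. Splicing and RNA processing had the largest share of falls among lists of at least 16 genes, with 0 of 22 rising and 16 falling (median -1.23). After Y14/RBM8, already described, came PL10A, a DEAD-box RNA helicase, which read 12.55 and 12.65 in UNM and 9.70 and 9.55 in BCP (-2.97 ± 0.15). RH10, a nucleolar DEAD-box helicase, fell at -2.25 ± 0.13, and both of its other probe sets gave the same call. MAGO2, the partner of Y14 in the exon junction complex, read 10.27 on both UNM arrays and 8.17 and 8.14 in BCP (-2.12 ± 0.19), and MAGO1 fell at -1.38 ± 0.15 on a shared probe set. For these genes the BCP signals, other than those of Y14/RBM8, remained well above background.

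Small RNA factors fell more than they rose, 11 against 2 of 26 (median -0.79). DCL4, the Dicer-like enzyme that makes trans-acting small RNAs, fell to background from 9.03 and 8.92 to 5.35 and 5.60, and RDR2, the RNA polymerase of the heterochromatic pathway, read 8.06 and 8.02 against 5.77 and 5.59. The argonautes that rose were AGO14, from background (1.76 ± 0.25), and AGO18, from 6.41 and 6.53 to 7.93 and 7.96 (1.47 ± 0.18), whose other probe set did not give the call. AGO17 read 11.00 and 10.92 against 9.48 and 9.20 and fell.

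Arginine methyltransferases, which modify histones and splicing proteins, had 7 measured genes, of which 1 rose and 4 fell. PRMT10 fell to background, from 11.10 and 11.24 to 5.57 and 5.54 (-5.61 ± 0.17, adjusted p = 8.07e-07 by limma). PRMT1 read 12.13 and 12.36 against 9.18 and 9.14, and PRMT5 9.80 and 9.63 against 7.05 and 7.04. PRMT6.2 was the exception, at 7.81 and 7.72 in UNM and 9.60 and 9.65 in BCP. Of the histone demethylases JMJ705, which acts on H3K27 in rice, read 5.70 and 5.89 against 8.70 and 8.59 and rose by 2.85 ± 0.13, and JMJ703 rose by 1.28 ± 0.14. In all, 5 of 26 genes of DNA methylation and histone modification rose and 9 fell.

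Members of signalling families rose and fell, and an exchange between them was not tested. Among 13 MPK kinases 6 rose and 5 fell (5 and 5 with the hybridization controls). Besides MPK17, MPK1 rose from 7.13 and 7.48 in UNM to 11.44 and 11.38 in BCP (4.11 ± 0.15), while MPK7 read 9.58 and 9.59 against 6.96 and 7.04 (-2.59 ± 0.13) and MPK14 fell to background. WNK4, of the plant WNK kinases, rose by 3.50 ± 0.13. Type 2A and 2C phosphatases formed the list of 60 genes in which 20 rose and 20 fell (18 and 21 with the hybridization controls, 21 and 14 with the 75th percentile). OsPP2C59 had the largest rise of the list, and OsPP2C64, at 8.41 and 8.39 in UNM and 4.28 and 4.80 in BCP, the largest fall, but the latter was back at 8.31 and 8.52 in TCP.

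Calcium sensors and their kinases changed in part from background. Of 7 CBL sensors 3 rose and 0 fell, and of 24 CIPK kinases 6 rose and 8 fell. CIPK30 read 3.62 and 3.35 in UNM and 8.29 and 8.13 in BCP, CIPK5 4.01 and 3.68 against 8.52 and 8.32, and both were higher still in TCP, at 12.40 and 12.58 and at 13.10 and 12.98. CBL5 appeared in BCP at 6.35 and 6.28 and was under background in UNM and TCP. The 14-3-3 proteins, adaptors that bind phosphorylated partners, split into 2 rises and 4 falls among 7 genes. GF14D read 8.53 and 8.70 against 11.83 and 12.09 (3.35 ± 0.14) and GF14F rose by 1.70 ± 0.12, whereas GF14E read 9.81 and 9.68 against 6.52 and 6.33 (-3.33 ± 0.16) and GF14A fell at -2.74 ± 0.13. Of 14 SAPK and SnRK1 kinases 3 rose and 6 fell, with SAPK8 up from 6.97 and 6.44 to 9.94 and 9.88, the energy sensor SnRK1A up by 1.58 ± 0.17 and sapk2 down from 8.35 and 8.40 to 5.85 and 5.68.

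Transporters for ions and metals also changed in both directions. Among 22 HAK potassium transporters 6 rose and 6 fell (5 and 7 with the hybridization controls, 6 and 5 with the 75th percentile). HAK2 read 7.86 and 7.98 in UNM and 11.48 and 11.36 in BCP and HAK15 6.93 and 6.84 against 10.65 and 10.42, both on shared probe sets. HAK25 fell to background, from 8.47 and 8.56 to 5.24 and 5.23, and the inward channel gene AKT1 read 8.96 and 8.94 against 5.85 and 5.82 on a shared probe set. HAK5, a high-affinity carrier, was at the top of the signal range in UNM, at 13.00 and 12.98, and fell to 11.05 and 11.03, a call that its other probe set did not give.

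YSL proteins carry metals bound to nicotianamine, and 6 of 15 YSL genes rose and 2 fell. YSL7 rose from background, from 5.07 and 4.88 to 11.12 and 11.07 (6.12 ± 0.13), as did YSL18, from 4.38 and 4.36 to 8.90 and 8.92. YSL6 read 10.59 and 10.62 against 7.68 and 7.58 on a shared probe set. The magnesium transporter MRS2-A read 7.90 and 6.91 in UNM and 12.46 on both BCP arrays (5.05 ± 0.29), so that its UNM replicates differed by about 1 and still lay far below BCP. VIT1, which loads iron into the vacuole, fell to background from 10.34 and 10.53, and tom2, an exporter of iron-chelating phytosiderophores, read 9.66 and 9.71 against 6.41 and 6.61, its other probe set giving the same call. Over metal transport and chelation 12 of 59 genes rose and 7 fell, but 11 rose and 13 fell with the hybridization controls.

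Water and nutrient transport added further contrasts. TIP1-2, an aquaporin of the vacuolar membrane, read 8.19 and 8.51 in UNM and 11.89 and 11.84 in BCP (3.52 ± 0.15), and its relative TIP2-2 rose by 3.90 ± 0.14 on a shared probe set. These were the 2 rises among 25 aquaporins, 10 of which fell (1 and 4 without shared probe sets). The phosphate transporter PHT1-12 fell to background, from 8.34 and 8.51 to 4.25 and 4.17, and AMT1, an ammonium transporter, read 11.14 and 11.04 against 6.21 and 5.99 (-4.99 ± 0.16), though its other probe set did not give the call. The ABC transporter gene ABCG45 fell to background from 10.04 and 9.83.

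**Figure D5:**
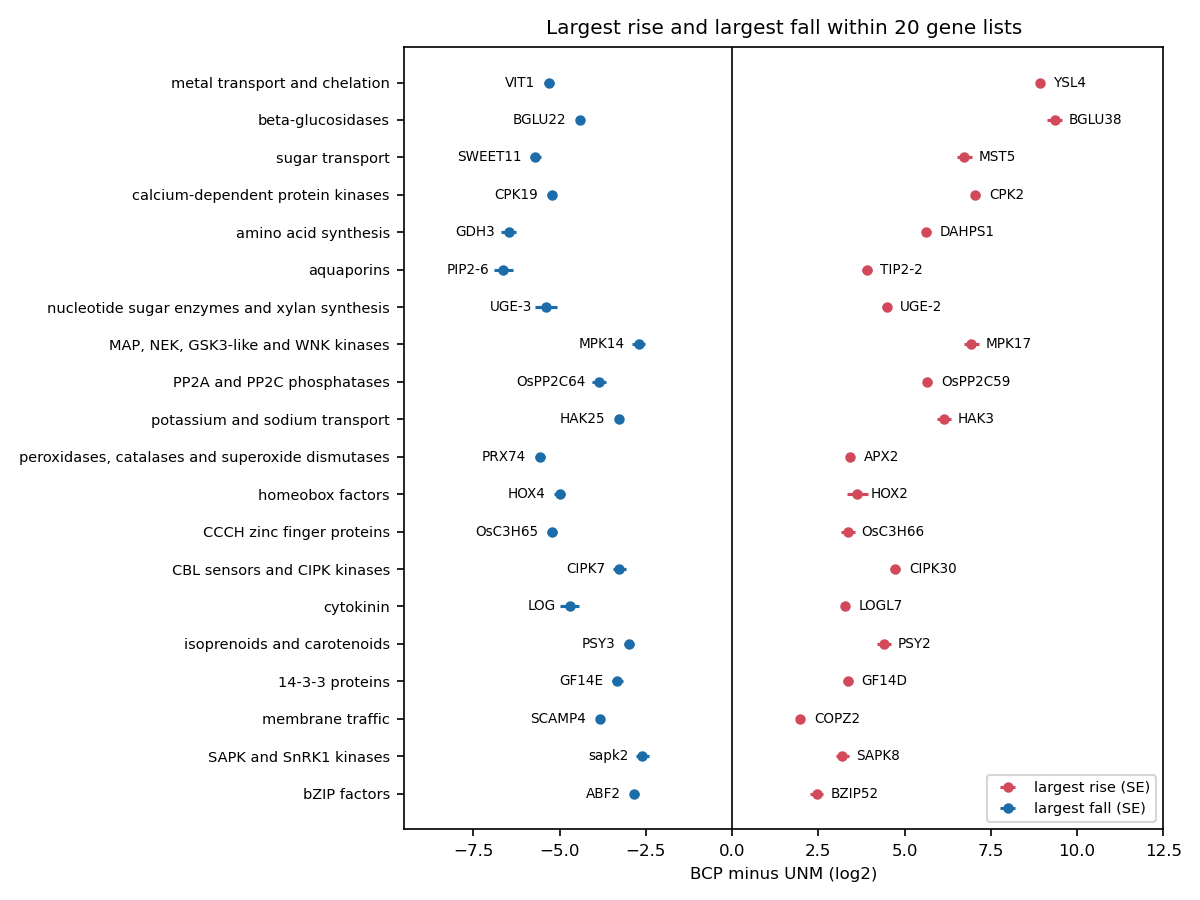
The largest rise (right) and the largest fall (left) within each of 20 gene lists, as BCP minus UNM on the log2 scale with its SE. The rises run from 1.98 for COPZ2 to 9.35 for BGLU38 and the falls from -2.61 for sapk2 to -6.63 for PIP2-6. The lists were picked from the 67 in which members both rose and fell, so each pair parts by selection.

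Ascorbate peroxidases, which remove hydrogen peroxide, mostly rose. Of their 7 genes 6 rose and 1 fell, with a median of 1.82. APX2, a cytosolic form, read 9.69 and 9.78 in UNM and 13.16 and 13.17 in BCP (3.43 ± 0.12) on a shared probe set, and 2 of its 3 other probe sets gave the same call. APX8 rose from 5.92 and 6.18 to 8.79 and 8.80, and MDAR5, which regenerates ascorbate, rose by 1.97 ± 0.12. APX5 was the fall, from 8.94 and 8.66 to 6.56 and 6.28. PRXIIF, a mitochondrial peroxiredoxin, read 7.36 and 6.86 against 10.01 and 10.09, and the glutathione transferase gene GST-II rose by 3.77 ± 0.14 on a shared probe set. PRX74, a secreted peroxidase, fell to background from 8.79 and 8.76 (-5.57 ± 0.14), and the glutaredoxin gene GRXS9 from 7.02 and 7.07 (-4.32 ± 0.12). Over the whole list of peroxidases, catalases and superoxide dismutases, which holds the ascorbate peroxidases, 7 of 18 genes rose and 5 fell. Among glutaredoxins, glutathione transferases and peroxiredoxins 6 of 29 rose and 8 fell (4 and 10 with the hybridization controls).

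Genes of the secretory path moved in both directions. SCAMP proteins, which mark secretory and recycling vesicles, had 6 measured genes, of which 0 rose and 5 fell. SCAMP6 read 12.08 and 12.10 in UNM and 8.63 and 8.54 in BCP (-3.51 ± 0.12), SCAMP3 10.74 and 10.72 against 7.33 and 7.23, and SCAMP5 9.47 and 9.65 against 6.46 and 5.99. Among the rises, SEC18, the ATPase that disassembles SNARE complexes, read 9.85 and 9.52 against 11.75 and 11.55 (1.97 ± 0.16). The coatomer subunit gene Archain rose by 1.95 ± 0.12 and VPS9A, an exchange factor for small GTPases, by 1.86 ± 0.12, both on shared probe sets. Of 20 membrane traffic genes 7 rose and 8 fell (5 and 8 with the hybridization controls).

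Lists for making and breaking proteins did not all move alike, and the shares of falls for ribosomal proteins and the proteasome were at or under the 25.1% over all genes. Ribosomal proteins had 0 rises and 2 falls among 25 genes, with a median of -0.57 that kept its sign under each scaling, and the count of falls ran from 0 with the 75th percentile to 9 with the hybridization controls. Of 16 proteasome genes 0 rose and 4 fell (median -0.77), 2 with the 75th percentile and 8 with the hybridization controls, with PAF1, an alpha subunit of the core particle, at 10.84 and 10.77 in UNM and 8.64 and 8.91 in BCP. In the ubiquitin and SUMO list 5 of 26 rose and 11 fell. UBQ1 read 9.91 on both UNM arrays and fell at -3.93 ± 0.14, and UBC5A, a conjugating enzyme, fell to background from 8.74 and 8.79. The ubiquitin ligase genes PUB4 and XBOS32 went up by 1.57 ± 0.12 and 1.56 ± 0.14. Cystatins, inhibitors of cysteine proteases, had 0 rises and 3 falls among 8 genes, led by OC-III at 10.48 and 10.41 against 6.03 and 6.24. For folding and glycosylation in the endoplasmic reticulum 6 of 31 genes rose and 5 fell (median 0.36), 2 and 5 with the hybridization controls. There PDIL1-1, a protein disulfide isomerase, read 12.70 and 12.77 against 10.66 and 10.62, and was at 4.63 in the TCP mean.

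Members of transcription factor families rose and fell. The share of falls ran from 29.6% for homeobox to 36.0% for CCCH genes in the lists counted next, beside 25.1% over all genes. Other families lay on both sides of these. The share was higher for NAC and WRKY (42.9%) and MADS box genes (38.7%). For NAC and WRKY this was 6 of 14 genes, but 3 with the 75th percentile, and only 6 were above background in either stage. The share of falls was under that of all genes for bZIP (23.8%), growth-regulating, heat stress and TUBBY-like genes. Of 50 CCCH zinc finger genes 5 rose and 18 fell (median -0.60), of 54 homeobox genes 4 rose and 16 fell, and of 33 DREB, DOF, GATA, YABBY and NF-Y genes 4 rose and 10 fell. OsC3H66 rose by 3.36 ± 0.19, and OsC3H54 read 7.68 and 7.44 against 10.21 and 10.46 with a TCP mean at background (3.86). OsC3H10 fell to background from 8.66 and 8.77. HOX2 read 5.41 and 5.53 against 9.14 and 9.05 (3.63 ± 0.31), and was at 5.53 in the TCP mean, while HOX4 fell to background from 8.72 and 9.08 (-5.00 ± 0.16). HAP5D, a subunit of the NF-Y factor that binds CCAAT boxes, rose from 8.45 and 8.08 to 11.75 and 11.86 (3.54 ± 0.16), and HAP3C, of the same complex, fell from 9.72 and 9.85 to 7.19 and 6.97. HOX2 and OsC3H54 were thus highest in BCP among the 3 stages.

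Of 12 TUBBY-like genes 6 rose and 0 fell (median 0.96), 5 and 1 with the hybridization controls. TULP11 read 7.64 and 7.63 in UNM and 10.59 and 10.78 in BCP (3.05 ± 0.13), and TULP10 rose by 1.79 ± 0.12. Di19 zinc finger genes moved apart, with DI19-4 up from 5.23 and 5.10 to 9.84 and 9.79 (4.65 ± 0.12) and DI19-3 down to background from 9.85 on both arrays, on a shared probe set. The stress-associated zinc finger gene SAP17 fell to background from 8.56 and 8.49, and read 8.12 and 8.29 again in TCP. MYBS3, a MYB factor known in rice for repressing an amylase gene under sugar, rose by 3.62 ± 0.13 on a shared probe set, and its other probe set did not give the call.

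Genes for wall precursors likewise moved in both directions. UGE-2, an epimerase of the same kind as UGE-3, read 7.28 and 7.19 in UNM and 11.72 and 11.70 in BCP (4.48 ± 0.13), the reverse of UGE-3. GME-1, which makes GDP-galactose for ascorbate and walls, rose from 7.18 and 7.46 to 10.13 and 10.06, and the xyloglucan xylosyltransferase gene XXT1 rose by 2.66 ± 0.15, not called on its other probe set. GUT1, of xylan synthesis, fell to background from 6.77 and 6.66 on a shared probe set. The list had 8 rises and 10 falls among 28 genes. Of 29 phenylpropanoid and flavonoid genes 2 rose and 12 fell. HCT2, an acyltransferase of the pathway, fell to background from 7.85 and 8.13, and CAD3, of the alcohol dehydrogenases that end it, read 7.49 and 7.63 against 9.85 and 9.97 on a shared probe set.

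Isoprenoid genes moved both ways. HMG1, a reductase of the cytosolic mevalonate route, read 7.61 and 7.42 in UNM and 10.56 and 10.71 in BCP (3.12 ± 0.13), and HMG3 rose by 2.37 ± 0.12. ISPH, the last enzyme of the plastid route, read 6.04 and 5.69 against 9.73 and 9.60 (3.80 ± 0.18), while 3 enzymes acting before it fell, ISPF to background at -1.52 ± 0.12, ISPG at -1.33 ± 0.30 and DXR to background at -1.07 ± 0.26. The calls of ISPG and DXR ended when single arrays were left out. Phytoene synthases, which begin carotenoid synthesis, parted, with PSY2 up by 4.40 ± 0.20 on a shared probe set and PSY3 falling to background from 6.96 and 6.75. Of 13 genes in the list 4 rose and 4 fell, but only 2 fell without UNM replicate 2 or BCP replicate 1 or with quantile normalisation.

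Marker lists were set beside the stage labels, as a description, since they were chosen with results of these data known. All 6 vegetative cell markers rose, with a mean over the list of 4.89 and 4.54 in UNM and 11.97 and 12.08 in BCP. RAC6, a small GTPase of tube growth, read 9.37 and 8.97 against 13.18 and 13.12, and was the member already above background in UNM. Tapetum and anther wall markers had means of 7.74 and 7.74 in UNM and 4.30 and 4.39 in BCP, with 9 of 11 above background in UNM and 1 in BCP. Transcripts of most of these markers were thus present in the samples labelled UNM, and the cells they came from were not tested. AP25, a protease of the tapetum, read 10.30 and 10.23 in UNM and 4.87 and 5.26 in BCP. CYP703A3, an enzyme of sporopollenin precursors, fell to background from 7.95 and 7.90. The part of anther wall RNA in the falls of these markers and of other genes was not tested. Of 13 meiosis genes 8 were above background in UNM and 7 in BCP, and 5 rose and 1 fell. The counts were 6 and 0 with quantile normalisation or with centring on the median or 75th percentile. They were 4 and 3 with the hybridization controls, and the falls also changed when single arrays were left out. MER3, a helicase of crossover formation, rose from background to 6.45 and 6.67, not called on its other probe set. The 26 genes of photosynthesis and chlorophyll averaged 5.79 and 5.80 in UNM and 5.26 and 5.29 in BCP, and 14 were above background in UNM against 6 in BCP. Named genes specific to the generative or sperm cell were not found in the tables, so that cell was not followed here.

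Some genes above background in both stages did not move. There were 431 such named genes with a 95% confidence interval of the difference within 1 of 0. The 8 nearest to 0 included ARP4, an actin-related protein of chromatin complexes (9.54 and 9.59 in UNM, 9.59 and 9.54 in BCP, difference 0.00, 95% interval -0.29 to 0.29). SSRP1-B, of the FACT histone chaperone, read 11.77 and 11.98 against 11.83 and 11.92 (interval -0.32 to 0.31). CBL3, a calcium sensor, read 10.93 and 11.00 against 10.90 and 11.03 (interval -0.29 to 0.29), and its TCP arrays were at 6.08 and 6.11. TUBC, a tubulin-folding cofactor, read 9.12 and 9.23 against 9.11 and 9.26. In each of these the values of the stages overlapped.

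Other probe sets did not always bear out the representative one. Of the 1147 named genes that rose or fell, 234 had other probe sets, of which all gave the same call in 53 genes, none did in 150, and an opposite call occurred in 5. The representative probe set was shared with other transcripts in 230. SBE, a starch branching enzyme, is such a case, since it rose by 1.97 ± 0.12 on a shared probe set, while 3 of its 7 other probe sets rose and 1 fell. GSK1, a GSK3-like kinase, rose by 3.98 ± 0.19 and YAB1, a YABBY factor, fell at -6.20 ± 0.18 on shared probe sets whose sisters gave no call.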

How the data were processed

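The values analysed were those of the deposited expression table, log2 signals of 6 Affymetrix arrays, for which the submitters' processing notes name RMA as the authors' method. RMA corrects background, normalises quantiles and summarises probes on the log2 scale. The deposited values still differed in distribution, since the 75th percentile was 6.40 for each UNM array and 6.23 for each BCP array. Which arrays were normalised together is not given in the sources used here. Control probe sets (187) were left out. One limma model (limma 3.58.1, R 4.3.3) was fitted to the stages of all 6 arrays, without a replicate block, over 57194 probe sets. Calls needed a Benjamini-Hochberg adjusted p under 0.05 and a difference of at least 1 on the log2 scale. The test was checked on simulated data. Genes were named from the platform annotation, and all 17905 gene IDs were found in the RefSeq table. For array data no counting depth exists, and the number of arrays limits the precision, with a median SE of 0.156.

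The genes named were, by rule, those with the largest rises and falls with a name, also among genes above background in both stages, the largest in each gene list and the genes nearest to a difference of 0. Further members of lists were named after their values were seen, as were the subfamily counts. The members and lists were chosen with earlier results of these data known, and the lists were revised after the gene names were read. Alternatives changed the scaling, the minimum difference, the probe set rule, shared and dim probe sets, the replicate block and the arrays used. Same-numbered replicates did not deviate together (correlations of -0.0482, -0.0718 and 0.0101), so the numbers were not taken as pairs. Promoter motifs were not analysed here.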

Additional observations from a re-analysis of the deposited data

How the results depend on the processing

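Among genes with a call that were named by the rule, none reversed its direction under the alternatives tried. The balance of some lists did reverse, such as metal transport (12 rises and 7 falls, 11 and 13 with the hybridization controls) and amino acid synthesis (12 and 11, 9 and 14). The median over all genes also changed sign (-0.12, 0.05 with the 75th percentile). With no minimum difference 9198 probe sets rose, and with a minimum of 2 on the log2 scale 2421 probe sets rose and 3222 fell, as did 1464 and 2078 genes, since the threshold itself selects fewer. Leaving out 1 array at a time gave 5272 to 5323 rises and 6855 to 7059 falls over probe sets, and 3030 to 3063 rises and 4367 to 4458 falls over genes, where the lone array of a stage is assumed to vary like the other stages. With the replicate block 5303 probe sets rose and 7026 fell, as did 3069 and 4500 genes. Scaling moved the balance, to 3454 rises and 3967 falls over genes with the 75th percentile and to 2537 and 5492 with the hybridization controls. Of 529 named genes with a call, 353 held it under every setting that kept their probe set, and of the others 176 lost it with a minimum of 2. Genes on shared probe sets were not checked in the setting that left such probe sets out. Of 170 list counts 35 stayed within 1.5 times under every setting, so counts in short lists depend on the settings. With 2 arrays a stage, the spread is known from 3 residual degrees of freedom, and genes near background have uncertain sizes.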
